A study of Mus musculus with 16 samples.

Results

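The 9 genes Alpi, Tmigd1, Mal, Vil1, Cdhr2, Cdhr5, Myo1a, Ezr and Cdh17 encode proteins of the brush border and the cell surface of absorptive colon cells. They were chosen by name, and all 9 of them were found among the 16039 genes of the deposited matrix and passed the filter on low values, which 10795 genes passed in epithelial cells. Their levels were followed across the epithelial cell types of the authors' annotation and across the study's groups, with the mouse as the replicate.

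Droplet RNA-seq of single cells (10x Genomics) was run on transverse colons from 16 C57Bl/6J mice, all female and 7 weeks old, with 1 library per mouse. Of these, 12 drank 4% DSS (dextran sulfate sodium, which damages the lining of the colon and causes colitis) and received on day 4 a dose of 10 mg/kg of either SZN-1326-p, a Surrozen protein built to activate Wnt signalling, or an anti-GFP antibody as the control protein. Colons were taken on day 5 (24 h after dosing) or day 6 (48 h), so that the groups were DSS with SZN-1326-p (3 mice at 24 h, 3 at 48 h), DSS with anti-GFP (3 and 3) and uninjured mice without DSS (2 and 2). Every dosed mouse had therefore also been given DSS, and the mice at 24 h and at 48 h were different animals. Epithelium released with EDTA and cells digested from the lamina propria went through a cell sorter, so that the number of cells per type also depends on recovery. The labels call each animal a replicate.

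The brush border is the carpet of microvilli on the apical face of absorptive cells. Each microvillus holds a bundle of actin filaments, tied to the membrane by motor and linker proteins, and its tips are joined to those of its neighbours by cadherin-like adhesion links. In the colon the brush border is assembled as cells leave the crypt base and mature towards the surface, where they absorb water and salt, and it is known to be disturbed in colitis. Villin (Vil1) bundles and severs actin, Myo1a is the motor that tethers the bundle to the membrane, and ezrin (Ezr) links membrane proteins to actin. Cdhr2 and Cdhr5 are the protocadherins that pair to form the links between microvillus tips. Alpi is the intestinal alkaline phosphatase, which removes phosphate from bacterial lipopolysaccharide, Tmigd1 is an immunoglobulin-domain adhesion protein of epithelial cells, and Mal is a raft-associated membrane protein of apical transport. Cdh17 (LI-cadherin) is known mainly from the lateral membrane, so that the word apical suits it less well than the other members.

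Positions are from GENCODE vM21 on mm10 (GRCm38), where all 9 are protein-coding. Alpi lies at chr1:87098002-87101606 on the minus strand, Tmigd1 at chr11:76902159-76916587 on the plus strand and Mal at chr2:127633226-127656695 on the minus strand. Vil1 lies at chr1:74409376-74435559 (plus), Myo1a at chr10:127705170-127720940 (plus) and Ezr at chr17:6738041-6782784 (minus). Cdhr2 lies at chr13:54701461-54736662 (plus), Cdhr5 at chr7:141269083-141276786 (minus) and Cdh17 at chr4:11758147-11817895 (plus). Vil1 overlaps Usp37 and Ezr overlaps Sytl3, each on the opposite strand, and whether the counting used strand is not given in the sources used here.

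The 3 promoters printed below belong to Alpi, Tmigd1 and Mal, the members with the lowest levels in SZN-1326-p mice at 48 h relative to anti-GFP mice. Each is the 250 bases before the start of transcription in RefSeq (GRCm38.p6), 5′ to 3′ on the gene's strand. For Tmigd1 the entry next to the GENCODE start is shown, of 2 entries in the RefSeq table. Both strands were searched for letters known for factors of gut identity and of Wnt signalling, and capitals mark the matches. The letters were AAAGTCC for the nuclear receptor HNF4, TTTATG for the homeobox factors CDX, GTTAAT for the homeobox factor HNF1, AGATAA for the zinc finger factors GATA, and ATCAAAG for TCF, which acts with beta-catenin in Wnt signalling.
Alpi, chr1:87101607-87101856 (-): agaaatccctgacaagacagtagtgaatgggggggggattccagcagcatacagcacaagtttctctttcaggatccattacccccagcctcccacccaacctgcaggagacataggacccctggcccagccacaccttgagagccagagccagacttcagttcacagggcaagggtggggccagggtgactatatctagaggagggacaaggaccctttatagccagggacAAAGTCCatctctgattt
Tmigd1, chr11:76901909-76902158 (+): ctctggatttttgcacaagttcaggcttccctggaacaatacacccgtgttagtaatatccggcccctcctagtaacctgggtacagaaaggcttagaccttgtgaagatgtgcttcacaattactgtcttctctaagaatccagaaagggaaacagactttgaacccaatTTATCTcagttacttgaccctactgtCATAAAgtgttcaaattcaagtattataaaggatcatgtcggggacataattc
Mal, chr2:127656696-127656945 (-): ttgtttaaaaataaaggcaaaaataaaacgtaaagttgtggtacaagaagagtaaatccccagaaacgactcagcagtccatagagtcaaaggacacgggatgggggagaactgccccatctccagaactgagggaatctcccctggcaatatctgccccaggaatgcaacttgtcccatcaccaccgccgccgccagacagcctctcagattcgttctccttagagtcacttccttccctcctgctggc
In Alpi the capitals are the HNF4 letters at position -18 from the start. In Tmigd1 they are the GATA letters at -79 and the CDX letters at -53, both on the opposite strand. Mal held none of the 5. Among the other members, Cdhr5 held the CDX letters at -39 and Cdhr2 the HNF1 letters at -54, while Vil1, Myo1a and Ezr held no match, and Cdh17 is named only. The TCF letters were in 0 of the 9 entries for 8 members, against 3.21% of 32851 promoters of the same length. The other shares over those promoters were 3.58% for HNF4, 10.8% for CDX, 6.43% for HNF1 and 9.99% for GATA. A match describes letters and is not evidence of binding.

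Libraries held 9616512 to 21335421 UMIs (unique transcript counts) and 192 to 1170 epithelial cells per mouse, 10373 of 22717 cells in all, in 17 of the 46 annotated types. Epithelial cells had a median of 7134 to 17164 UMIs and of 26.1% to 36.7% mitochondrial UMIs per mouse. At 48 h the median depth was 9391 to 14646 UMIs in SZN-1326-p mice, against 16330 to 17164 UMIs in anti-GFP mice. Levels are given as mean normalized UMIs per cell, the authors' values with their logarithm undone. Of 22652 barcode sequences, 64 occurred in more than 1 library, and 572 epithelial cells held UMIs of at least 2 immune, fibroblast, endothelial or smooth muscle markers.

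Across the epithelium the 9 genes were highest in absorptive types, but their highest means were not all in the same one. Mal was highest in ImmEntero2, an immature enterocyte type, by a step beyond the spread. Myo1a and Ezr also had their highest means there, but within the spread of the next type. Type levels below are means ± SD over all mice with at least 20 cells of the type, and are a description, since the types were defined on these genes among others. The order mixes groups, since Enterocyte and ImmEntero2 levels come from the 4 uninjured mice and AltEnterocyte levels from DSS mice, SZN-1326-p mice included. Alpi, Tmigd1 and Mal were nearly restricted to absorptive types. Alpi reached 0.609 ± 0.303 normalized UMIs per cell in AltEnterocyte2 (n = 8 mice), 0.518 ± 0.0949 in Enterocyte (n = 4), 0.480 ± 0.344 in AltEnterocyte (n = 10) and 0.395 ± 0.0427 in ImmEntero2 (n = 4). Neighbours among those 4 types did not differ beyond their spread. Alpi stood at 0.281 ± 0.181 in AltEnterocyte3 (n = 5), at 0.0985 ± 0.110 in AltEnteroPC (n = 15) and at 0.0112 or less in stem, TA, goblet, enteroendocrine and tuft cells and in EnteroPrecur. Tmigd1 showed the same outline, with 5.96 ± 2.70 in AltEnterocyte2, 3.84 ± 0.953 in ImmEntero2 and 3.77 ± 0.720 in Enterocyte. The first gap beyond the spread came between AltEnterocyte, at 2.81 ± 1.31, and ImmEntero1, at 0.429 ± 0.0958. Mal was ordered differently, with 4.47 ± 0.199 in ImmEntero2, 2.53 ± 0.435 in Enterocyte and 1.20 ± 0.675 in AltEnterocyte2, each step beyond the spread. AltEnterocyte held 0.481 ± 0.484, which is 10.8% of the ImmEntero2 level of Mal, whereas for Alpi it held 78.8% of the highest type. By group, Mal in AltEnterocyte was at 0.151 ± 0.0932 in SZN-1326-p mice at 24 h, against 0.935 ± 0.533 in anti-GFP mice at 24 h and 0.517 ± 0.415 in anti-GFP mice at 48 h (n = 3 each), and at 0 in the 1 SZN-1326-p mouse with at least 20 such cells at 48 h.

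The structural genes were found in every type. Vil1 was at 7.01 ± 0.854 in AltEnterocyte, 6.87 ± 0.276 in Enterocyte and 6.76 ± 0.320 in ImmEntero2, which did not separate, and its lowest level, 1.04 ± 0.148 in StemCell (n = 11), was still 14.9% of the highest. Cdhr2 was at 19.5 ± 2.42 in Enterocyte and 16.4 ± 3.36 in AltEnterocyte, and at 0.699 ± 0.138 in TA2 (n = 14). Its partner Cdhr5 was at 40.4 ± 5.74 in Enterocyte and 29.0 ± 6.47 in AltEnterocyte, a step beyond the spread, and at 0.714 ± 0.208 in StemCell. The gradient from stem cells to enterocytes was thus steeper for the protocadherins than for villin, since StemCell held 3.82% of the highest type for Cdhr2 and 1.77% for Cdhr5. Myo1a was at 5.13 ± 0.410 in ImmEntero2, 4.80 ± 1.22 in AltEnterocyte and 4.34 ± 0.372 in Enterocyte, and lowest in the enteroendocrine type EnteroEnd1 at 0.274 ± 0.122. Ezr was at 20.2 ± 1.54 in ImmEntero2 and 19.4 ± 0.899 in Enterocyte, with a gap down to 8.97 ± 1.84 in AltEnterocyte. Cdh17 was at 9.67 ± 2.36 in AltEnterocyte and 8.43 ± 0.314 in ImmEntero2, against 1.34 ± 0.351 in StemCell. Tuft cells, which also carry microvilli, reached 20 cells in 1 mouse, where Myo1a was at 3.67, Vil1 at 3.77 and Cdhr5 at 9.97, whereas Cdh17 was at 0.246 and Alpi, Tmigd1 and Mal were at 0.

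**Figure D1:**
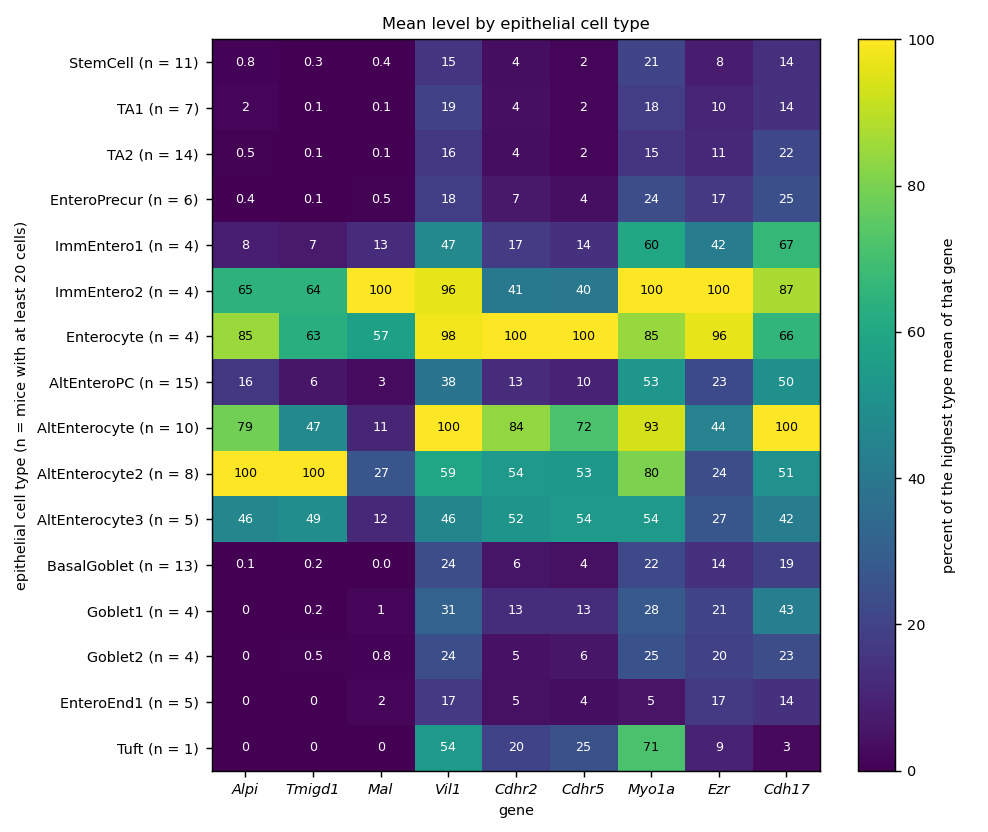
Mean level of each gene (x axis) in 16 epithelial types (y axis, n = mice of all groups with at least 20 cells), as percent of that gene's highest type. Alpi, Tmigd1 and Mal are near 0 outside absorptive types, and Mal and Ezr are at 44.4% or less in the AltEnterocyte types, and Vil1, Cdhr2, Cdhr5, Myo1a and Cdh17 reach 71.8% to 100% in AltEnterocyte.

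The profiles of Cdhr2 and Cdhr5 over 15 types had a Pearson r of 0.98 on the log2 scale, as did those of Alpi and Tmigd1, while Alpi and Ezr were the least alike (r = 0.75). These values describe profiles that share libraries and cells. Outside the members, of 8711 genes compared over the same 15 types, the most alike were Prss30 for Alpi (r = 0.98), Srxn1 for Tmigd1 (0.98), Cul1 for Mal (0.97), Slc6a8 for Vil1 (0.99), Sprr2a2 for Cdhr2 (0.99) and Abhd2 for Cdhr5 (0.98). For Myo1a it was Dgka (0.98), for Ezr Ndfip2 (0.97) and for Cdh17 F11r (0.97). Espn, which encodes the actin bundler espin, was also among the 3 most alike for Tmigd1 (0.97).

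All 9 genes had a UMI in some cells outside the epithelium, and Mal and Ezr reached the highest shares there. Mal had a UMI in 125 of 147 Glia1 cells (85.0%, exact 95% interval 78.2% to 90.4%) and in 53 of 77 Glia2 cells (68.8%, 57.3% to 78.9%), at a median of 5788 and 4115 UMIs per cell. In fibroblasts, where Mal is not a known product, the share was 0.266% at a median of 8609 UMIs. In the vascular endothelial type VascEndo, of 731 cells, Tmigd1 had a UMI in 48 (6.57%, 4.88% to 8.61%) and Mal in 29 (3.97%, 2.67% to 5.65%), whereas of 277 LymphEndo cells Tmigd1 had one in 1 (0.361%, 0.00914% to 1.99%) and Mal in 0 (exact 95% interval up to 1.32%). Ezr had a UMI in 79.4% of Dendritic cells (75.3% to 83.2%), 72.9% of Plasma_IgA cells (66.4% to 78.7%) and 16.4% of fibroblasts. The other members were seen there at low shares too. Cdhr5 had a UMI in 6.29% and Vil1 in 4.79% of VascEndo cells, close to the share of Tmigd1. Cdhr5 had one in 9.35% of Plasma_IgA cells and Cdh17 in 7.53% of Bcell2_IgM cells, while Alpi had one in 0.137% of VascEndo cells. Intervals cover counting error only. All comparisons below use the cells annotated as epithelial.

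Anti-GFP mice, which had DSS and a dose of antibody, were set against uninjured mice, which had neither, over both times. DSS and dosing cannot be told apart in this comparison. In anti-GFP mice 4 of the 9 genes were lower and none was higher. These were Mal, Ezr, Cdhr5 and Cdhr2, against a background of 12.5% of 10795 genes lower and 10.8% higher by limma with Benjamini-Hochberg adjustment at 0.05. Mal stood at 0.456, 0.249 and 0.300 normalized UMIs per epithelial cell in anti-GFP mice at 24 h and at 0.109, 0.196 and 0.224 at 48 h, against 1.40 and 1.93 (24 h) and 1.25 and 1.08 (48 h) in uninjured mice. Every anti-GFP mouse was below every uninjured mouse, and the log2 change was -2.51 ± 0.30 (SE, limma adjusted p = 3.23e-05). Ezr stood at 4.28, 4.91 and 3.54 (24 h) and 4.06, 3.65 and 3.46 (48 h) in anti-GFP mice, against 9.97 and 11.6 (24 h) and 9.77 and 8.14 (48 h) in uninjured mice. The groups did not overlap, with a log2 change of -1.31 ± 0.15 (adjusted p = 1.93e-05).

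For Cdhr5 the anti-GFP mice were at 8.05, 8.99 and 7.40 (24 h) and 9.88, 6.23 and 5.71 (48 h), against 11.1 and 16.9 (24 h) and 13.7 and 11.5 (48 h) in uninjured mice. These groups did not overlap either (log2 change -0.79 ± 0.20, adjusted p = 0.0087). Leaving out uninjured mouse 2 at 24 h or uninjured mouse 1 at 48 h ended the call for Cdhr5 (adjusted p 0.0612 and 0.0583, in a range of 0.00201 to 0.0612 over 22 alternatives). Groups did not overlap for 3 members, Mal, Cdhr5 and Ezr, where 14.9% of all genes did not. Cdhr2 was at 4.65, 4.83 and 4.17 (24 h) and 5.92, 3.36 and 3.84 (48 h) in anti-GFP mice, against 5.65 and 7.82 (24 h) and 6.84 and 5.48 (48 h) in uninjured mice. The ranges overlapped through anti-GFP mouse 1 at 48 h, and the change of -0.54 ± 0.18 (adjusted p = 0.0384) lost its call in 7 of 10 fits that left out a mouse.

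Alpi, Myo1a and Cdh17 showed changes near 0. Alpi averaged 0.221 ± 0.123 in anti-GFP mice (SD, n = 6) and 0.190 ± 0.0338 in uninjured mice (n = 4), a log2 change of 0.04 with a 95% interval of -0.60 to 0.68. Myo1a averaged 2.70 ± 0.267 in anti-GFP mice and 2.66 ± 0.356 in uninjured mice (interval of the log2 change -0.26 to 0.31), and Cdh17 4.51 ± 0.779 and 4.25 ± 0.492 in the same order (-0.23 to 0.39). Vil1 (-0.30 ± 0.14, adjusted p = 0.128) and Tmigd1 (-0.69 ± 0.25, adjusted p = 0.0525) did not pass. Tmigd1 passed without uninjured mouse 1 at 24 h (0.0428) and without anti-GFP mouse 1 at 48 h (0.0201), in a range of 0.000201 to 0.229 over its alternatives. The median log2 change of the members was -0.54, against 0.00 for all genes tested.

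**Figure D2:**
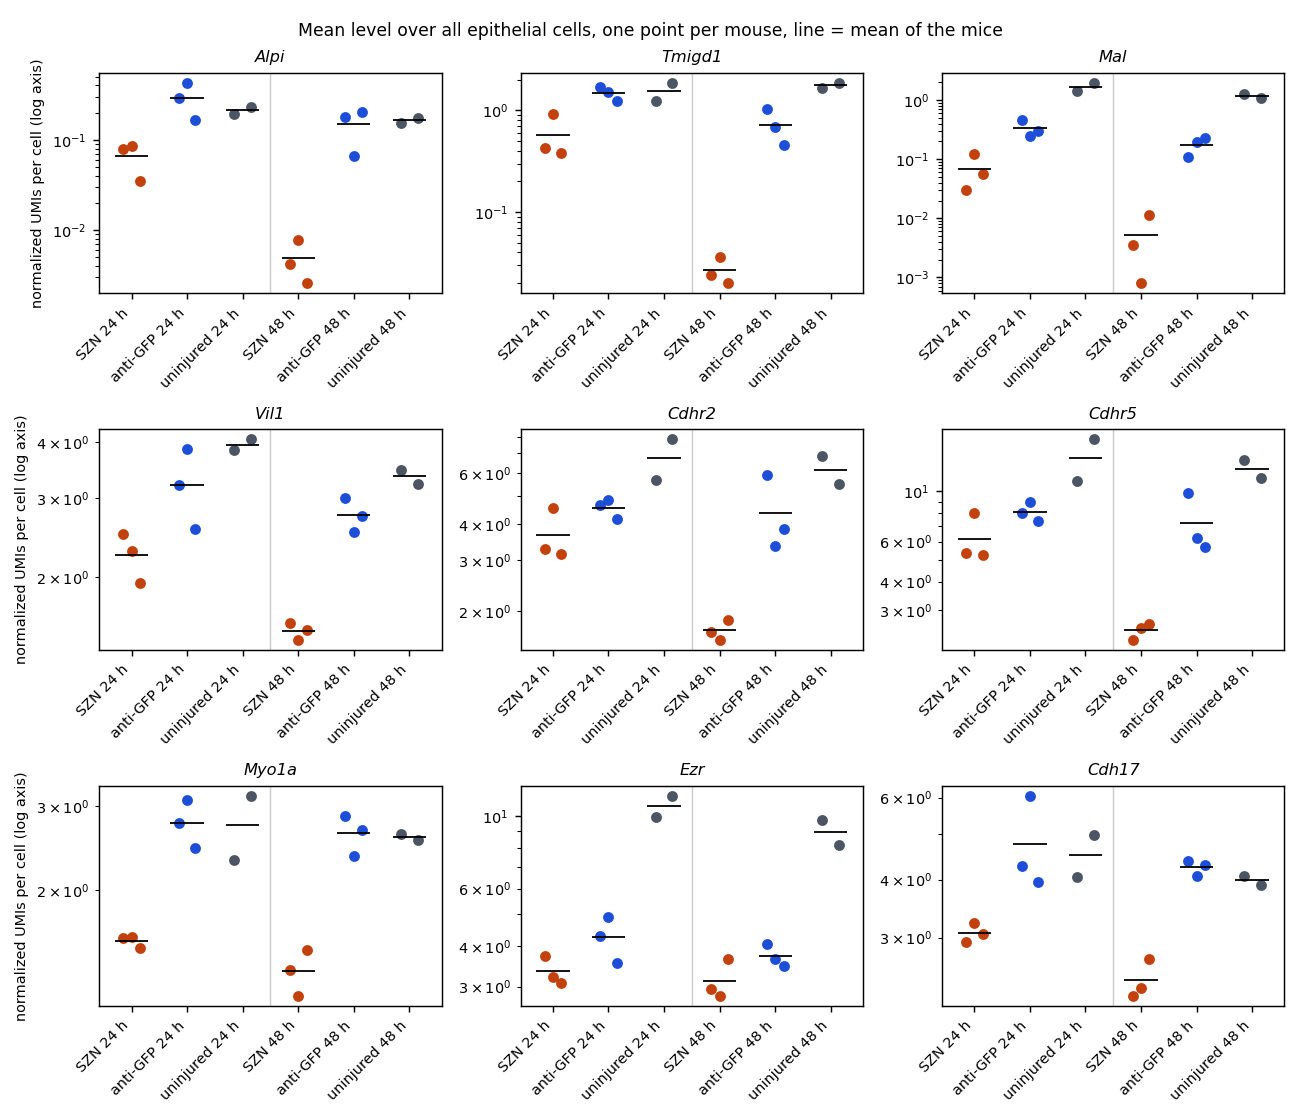
Mean level over all epithelial cells (y axis, normalized UMIs per cell, log axis) in each mouse (points) of the 6 groups (x axis), with the line at the mean of the mice. Alpi, Tmigd1 and Mal in SZN-1326-p mice at 48 h lie at 0.000793 to 0.0362, below every other mouse, and Ezr separates all DSS mice from the uninjured ones.

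SZN-1326-p was then set against anti-GFP within DSS mice. At 24 h, 5 of the 9 genes were lower in SZN-1326-p mice and none was higher, where 4.25% of all genes were lower and 5.89% higher. The 5 were Mal, Alpi, Tmigd1, Myo1a and Cdh17. Alpi was at 0.0800, 0.0848 and 0.0351 in SZN-1326-p mice, against 0.293, 0.423 and 0.165 in anti-GFP mice. Mal was at 0.0302, 0.121 and 0.0558 in SZN-1326-p mice, against 0.456, 0.249 and 0.300 in anti-GFP mice. Tmigd1 was at 0.425, 0.921 and 0.380 in SZN-1326-p mice, against 1.71, 1.51 and 1.25 in anti-GFP mice. For all 3 every SZN-1326-p mouse was below every anti-GFP mouse. The means of anti-GFP mice were 4.41 times (Alpi), 4.86 times (Mal) and 2.59 times (Tmigd1) those of SZN-1326-p mice. The log2 changes, which average over mice on the log2 scale after 0.01 was added to the level, were -1.97 ± 0.38 for Alpi (adjusted p = 0.00649), -2.25 ± 0.38 for Mal (0.00371) and -1.46 ± 0.31 for Tmigd1 (0.0102). Tmigd1 lost its call without SZN-1326-p mouse 3 (adjusted p = 0.0563, range 0.00172 to 0.760 over 18 alternatives).

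Myo1a was at 1.59, 1.59 and 1.51 in SZN-1326-p mice at 24 h, against 2.76, 3.08 and 2.45 in anti-GFP mice, without overlap and with little spread in the SZN-1326-p mice (log2 change -0.81 ± 0.17, adjusted p = 0.00836). Cdh17 was at 2.93, 3.23 and 3.05 in SZN-1326-p mice, against 4.29, 6.06 and 3.94 in anti-GFP mice (-0.61 ± 0.19, adjusted p = 0.0463), and this call was lost in 5 of 6 fits that left out a mouse. Vil1 was at 2.49, 2.28 and 1.94 in SZN-1326-p mice, against 3.21, 3.87 and 2.56 in anti-GFP mice, and did not overlap but did not pass (-0.51 ± 0.18, adjusted p = 0.0776). It passed without SZN-1326-p mouse 1 and without anti-GFP mouse 3. In all, 6 members did not overlap between the groups, against 24.3% of all genes. Cdhr2, Cdhr5 and Ezr overlapped, with intervals of the log2 change of -0.81 to 0.14, -0.94 to 0.10 and -0.74 to 0.07. The call for all 5 genes was lost when the fit held only the 6 mice compared, where 0 of 10267 genes passed limma's test after adjustment and 2104 genes, 5 members among them, had an unadjusted p under 0.05.

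At 48 h, 8 of the 9 genes were lower in SZN-1326-p than in anti-GFP mice, where 10.1% of all genes were lower and 2.41% higher. Alpi was at 0.00419, 0.00787 and 0.00258 in SZN-1326-p mice, against 0.178, 0.0660 and 0.203 in anti-GFP mice. Tmigd1 was at 0.0242, 0.0362 and 0.0199 in SZN-1326-p mice, against 1.02, 0.689 and 0.457 in anti-GFP mice. Mal was at 0.00349, 0.000793 and 0.0112 in SZN-1326-p mice, against 0.109, 0.196 and 0.224 in anti-GFP mice. The groups were far apart for each of the 3, with anti-GFP means 30.5 times (Alpi), 27.0 times (Tmigd1) and 34.3 times (Mal) those of SZN-1326-p mice. Behind these levels stood 14 UMIs of Alpi, 72 of Tmigd1 and 20 of Mal in 2076 epithelial cells of SZN-1326-p mice, against 142, 793 and 236 UMIs of the same genes in 746 cells of anti-GFP mice. The log2 changes were -3.30 ± 0.38 for Alpi (adjusted p = 5.46e-05), -4.27 ± 0.31 for Tmigd1 (1.56e-06) and -3.62 ± 0.38 for Mal (3.3e-05).

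The log2 changes of the protocadherins were smaller. Cdhr5 was at 2.22, 2.49 and 2.59 in SZN-1326-p mice at 48 h, against 9.88, 6.23 and 5.71 in anti-GFP mice (log2 change -1.53 ± 0.25, adjusted p = 0.00066). Cdhr2 was at 1.70, 1.60 and 1.86 in SZN-1326-p mice, against 5.92, 3.36 and 3.84 in anti-GFP mice (-1.30 ± 0.23, adjusted p = 0.00119). Neither gene overlapped, and anti-GFP mouse 1 was the highest for both. The actin genes moved by under 1 log2 unit. Myo1a was at 1.36, 1.20 and 1.50 in SZN-1326-p mice, against 2.86, 2.36 and 2.67 in anti-GFP mice (-0.96 ± 0.17, adjusted p = 0.00126), and Vil1 at 1.58, 1.45 and 1.52 against 3.01, 2.52 and 2.74 in the same order (-0.85 ± 0.18, adjusted p = 0.00456). Cdh17 was at 2.25, 2.34 and 2.70 in SZN-1326-p mice, against 4.39, 4.07 and 4.29 in anti-GFP mice (-0.81 ± 0.19, adjusted p = 0.00905). These 5 genes did not overlap between the groups either. Ezr did, at 2.94, 2.81 and 3.64 in SZN-1326-p mice, against 4.06, 3.65 and 3.46 in anti-GFP mice (-0.26 ± 0.19, adjusted p = 0.409, interval -0.66 to 0.15). So 8 members did not overlap, against 37% of all genes. The calls of these 8 held in all 6 fits that left out a mouse, and the members' median was -1.30, against -0.11 for all genes tested.

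In these epithelial averages, fewer cells of a type and less RNA per cell cannot be told apart. The 7 colonocyte markers moved with the members, with a summed level of 21.6 to 26.4 in SZN-1326-p mice at 48 h, against 68.1 to 139 in anti-GFP mice, and none of the 7 was at 0. At 24 h their sum was 44.5 to 70.4 in SZN-1326-p mice, against 104 to 126 in anti-GFP mice, and over both times it was 68.1 to 139 in anti-GFP mice, against 163 to 239 in uninjured mice. Summed progenitor markers (6) were at 8.19 to 9.93 in SZN-1326-p mice at 24 h, against 4.69 to 5.80 in anti-GFP mice, and at 6.27 to 7.99 in SZN-1326-p mice at 48 h, against 3.98 to 6.15 in anti-GFP mice. Sums of goblet and tuft markers did not overlap at 48 h either. The 6 goblet markers summed to 49.6 to 128 in SZN-1326-p mice, against 191 to 302 in anti-GFP mice, and the 5 tuft markers to 0.21 to 0.53 in SZN-1326-p mice, against 1.30 to 2.53 in anti-GFP mice. At 24 h the goblet and tuft sums overlapped between these groups. Of the markers tested at 48 h, 7 of 7 colonocyte, 4 of 4 tuft, 2 of 5 enteroendocrine and 1 of 6 goblet markers passed as lower. For all genes this share was 10.1%. The 6 general epithelial markers summed to 113 to 120 in SZN-1326-p mice at 48 h, against 117 to 143 in anti-GFP mice, and 0 passed. In anti-GFP against uninjured mice 4 of those 6 were lower, where 12.5% of all genes were. Immune markers summed to 0.19 to 3.92 in SZN-1326-p mice at 48 h, against 0.56 to 37.0 in anti-GFP mice, and without the 572 cells that held markers of another lineage 8 members passed. The part that colonocyte, progenitor, goblet and tuft cells play in the result was not tested.

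**Figure D3:**
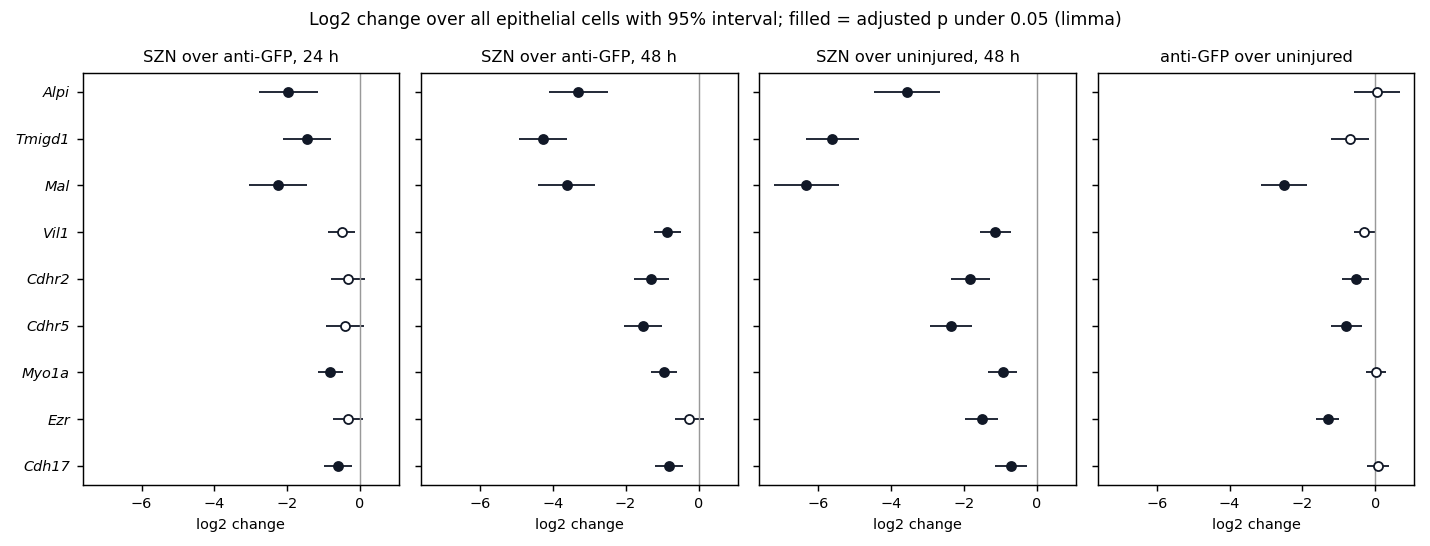
Log2 change (x axis) with 95% interval of the 9 genes (y axis) over all epithelial cells in 4 comparisons, filled where the limma adjusted p was under 0.05. The change of Tmigd1 was -1.46 at 24 h and -4.27 at 48 h, and Ezr and Mal were lower in anti-GFP than in uninjured mice while Alpi, Myo1a and Cdh17 were near 0 there.

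The test of the difference between the effects at 48 h and at 24 h passed for Tmigd1 alone among the members (log2 difference -2.81 ± 0.44, adjusted p = 0.036), where 0.13% of all genes passed as lower and 0.00926% as higher. The call was lost or reversed in 14 of 23 alternatives, including 7 of 12 fits that left out a mouse, where the difference was -3.10 to -2.42 (range of adjusted p 0.00662 to 0.999 over the 23). For Alpi the difference was -1.33 (interval -2.47 to -0.19, adjusted p = 0.441), for Mal -1.37 (-2.49 to -0.25, 0.415), for Cdhr5 -1.11 (-1.85 to -0.38, 0.247) and for Cdhr2 -0.97 (-1.64 to -0.29, 0.285). For Vil1, Myo1a, Ezr and Cdh17 it was between -0.35 and 0.08.

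Set against uninjured mice at 48 h, all 9 genes were lower in SZN-1326-p mice, where 12.8% of all genes were lower and 4.18% higher. None of the 9 overlapped, and 58.9% of all genes did not overlap either in these groups of 3 and 2. Mal averaged 0.00515 ± 0.00538 in SZN-1326-p mice (SD, n = 3), against 1.25 and 1.08 in the 2 uninjured mice, a ratio of 227 of uninjured over SZN-1326-p (log2 change -6.33 ± 0.42, adjusted p = 7.41e-08). Tmigd1 averaged 0.0267 ± 0.00844 in SZN-1326-p mice, against 1.67 and 1.85 in uninjured mice (-5.61 ± 0.35, adjusted p = 3.03e-08). Alpi averaged 0.00488 ± 0.00271 in SZN-1326-p mice, against 0.155 and 0.174 in uninjured mice (-3.57 ± 0.43, adjusted p = 2.04e-05). Cdhr5 (-2.37 ± 0.28), Cdhr2 (-1.83 ± 0.25), Ezr (-1.52 ± 0.21), Vil1 (-1.14 ± 0.20), Myo1a (-0.93 ± 0.19) and Cdh17 (-0.72 ± 0.21) followed. Of these, Cdh17 lost its call in 4 of 5 fits that left out a mouse (range of adjusted p 0.00133 to 0.351 over 17 alternatives), and the other 8 members kept theirs in all 5. This comparison shares its SZN-1326-p mice with the 48 h comparison above.

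The cell types that carried these genes changed with the groups. In SZN-1326-p mice the AltEnterocyte types (AltEnterocyte, AltEnterocyte2 and AltEnterocyte3) made up 16.6% ± 5.98 of epithelial cells at 24 h and 3.14% ± 0.434 at 48 h (SD, n = 3 each), and in anti-GFP mice 28.5% ± 4.58 at 24 h and 20.7% ± 8.00 at 48 h (n = 3 each), where they supplied 37.2% to 89.1% of the level of each member. EnteroPrecur, in which Alpi, Tmigd1 and Mal were near 0, made up 37.7% ± 4.16 in SZN-1326-p mice at 48 h, against 5.69% ± 3.65 in anti-GFP mice. The Enterocyte and ImmEntero types made up 0.563% (24 h) and 0.284% (48 h) on average in anti-GFP mice, against 50.4% ± 12.0 (24 h) and 41.9% ± 7.39 (48 h) in uninjured mice (n = 2 each), where they supplied 71.3% to 97.2%. Of the residual level in SZN-1326-p mice at 48 h, AltEnteroPC supplied 76.2% for Alpi and 51.6% for Mal, the AltEnterocyte types 50.7% for Tmigd1, and EnteroPrecur 39.8% for Ezr.

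**Figure D4:**
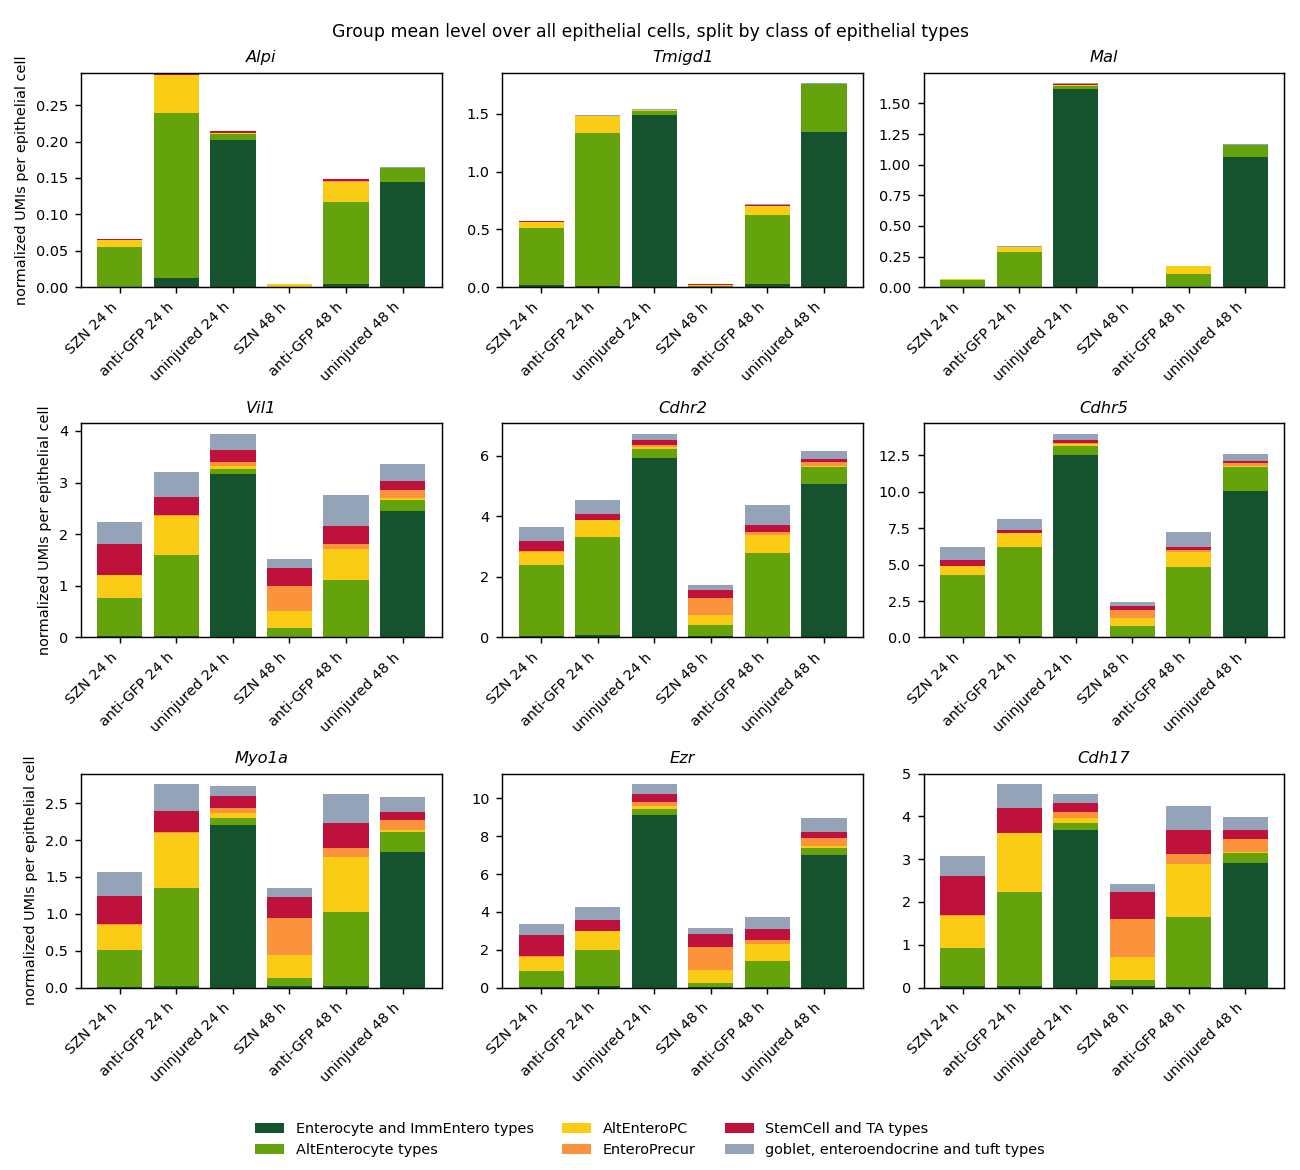
Group mean level of each gene over all epithelial cells (y axis, normalized UMIs per epithelial cell) in the 6 groups (x axis), with bar segments for the classes of epithelial types that supplied it. At 48 h the segments of the AltEnterocyte types and of the Enterocyte and ImmEntero types are small in SZN-1326-p mice, while the first are the largest in anti-GFP mice and the second supply most of each bar in uninjured mice.

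To show how far the type shares alone would move each gene, every type was given 1 average level and weighted by the shares of each mouse. That level was the mean over mice of any group with at least 10 cells of the type. Between SZN-1326-p and anti-GFP mice at 48 h the change from shares alone was -1.23 for Cdhr2, where -1.30 was measured, -1.48 for Cdhr5 (measured -1.53), -0.65 for Vil1 (measured -0.85) and -0.31 for Ezr (measured -0.26). It was smaller than the measured change for Alpi, at -1.62 (measured -3.30), Tmigd1, at -2.20 (measured -4.27), Mal, at -1.53 (measured -3.62), Myo1a, at -0.47 (measured -0.96) and Cdh17, at -0.38 (measured -0.81). For anti-GFP against uninjured it was -2.62 for Mal (measured -2.51), -1.24 for Ezr (measured -1.31) and -0.69 for Cdhr5 (measured -0.79). For Alpi the shares alone gave -0.60 where 0.04 was measured, for Myo1a -0.37 (measured 0.02) and for Cdh17 -0.33 (measured 0.08). These are descriptions without a test, and the average levels include the mice compared.

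Within a type the comparison does not depend on type shares. Types were fitted one at a time with at least 20 cells per mouse. In AltEnteroPC at 48 h (68, 78 and 142 cells in SZN-1326-p mice, 41, 64 and 37 in anti-GFP mice), Mal and Tmigd1 were lower in SZN-1326-p mice, where 0.133% of 10524 genes were lower and 0.0665% higher. Mal was at 0.0106, 0.00457 and 0.0453 normalized UMIs per cell in SZN-1326-p mice, against 0.240, 0.228 and 0.568 in anti-GFP mice (log2 change -3.67 ± 0.65, adjusted p = 0.0261). Tmigd1 was at 0.0343, 0.0906 and 0.0276 in SZN-1326-p mice, against 0.459, 0.230 and 0.617 in anti-GFP mice (-2.90 ± 0.56, adjusted p = 0.0424). Both pairs of groups were clear of each other. With a minimum of 10 cells, which adds uninjured mouse 1 at 48 h with 10 cells to the fit, neither call held (adjusted p 0.057 and 0.0799), 0 members and 0.0565% of genes passed in either direction, and 5 members and 5.7% of genes had an unadjusted p under 0.05. Alpi was at 0.0314, 0.0360 and 0.00565 in SZN-1326-p mice, against 0.0904, 0.0700 and 0.286 in anti-GFP mice, without overlap, and did not pass (-2.11 ± 0.67, adjusted p = 0.303). Vil1, Cdhr2, Cdhr5, Myo1a and Cdh17 did not overlap either and did not pass, at log2 changes of -0.88 to -0.45, and Ezr overlapped (-0.05, interval -0.55 to 0.44). In all, 8 members did not overlap within AltEnteroPC, against 22.2% of the genes tested there.

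AltEnterocyte had 10, 11 and 23 cells in SZN-1326-p mice at 48 h, against 52, 34 and 20 in anti-GFP mice, so that its 48 h comparison needed a minimum of 10 cells, which was chosen after seeing the data. Alpi, Tmigd1 and Mal were lower there, where 0.397% of 10067 genes were lower and 0.159% higher. Tmigd1 was at 0.303, 0.455 and 0.248 in SZN-1326-p mice, against 2.48, 3.00 and 2.94 in anti-GFP mice (-3.07 ± 0.34, adjusted p = 5.42e-06). Alpi was at 0, 0 and 0.0635 in SZN-1326-p mice, against 0.479, 0.344 and 0.366 in anti-GFP mice (adjusted p = 0.00446), which is 2 UMIs against 56 and a ratio of 6.57 of anti-GFP over SZN-1326-p per UMI sequenced (95% counting interval 1.74 to 55.6). Mal was at 0, 0 and 0 in SZN-1326-p mice, against 0.0457, 0.675 and 0.830 in anti-GFP mice (limma adjusted p = 0.00626). It had 0 UMIs in 44 cells, against 64 in 106 cells. With a floor of 3 counts over the group in place of 0, Mal was 5.01-fold lower per UMI sequenced. The 95% counting interval allowed a difference as small as 3.96-fold. The groups did not overlap for these 3 genes, though anti-GFP mouse 1 was close to 0 for Mal.

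The protocadherins and villin did not show this within AltEnterocyte cells. Cdhr5 was at 20.3, 34.5 and 26.8 in SZN-1326-p mice, against 27.0, 26.9 and 23.4 in anti-GFP mice, with an interval of the log2 change of -0.43 to 0.52. Cdhr2 was at 12.9, 16.8 and 12.4 in SZN-1326-p mice, against 16.5, 14.0 and 15.5 in anti-GFP mice (-0.60 to 0.32), and Vil1 at 5.65, 5.25 and 6.93 against 5.72, 6.81 and 6.20 in the same order (-0.56 to 0.40). All 3 overlapped. Myo1a (-0.80 ± 0.28, adjusted p = 0.186) and Cdh17 (-0.63 ± 0.24, adjusted p = 0.241) did not overlap and did not pass. In all, 5 members did not overlap within AltEnterocyte, against 15.8% of the genes tested there.

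**Figure D5:**
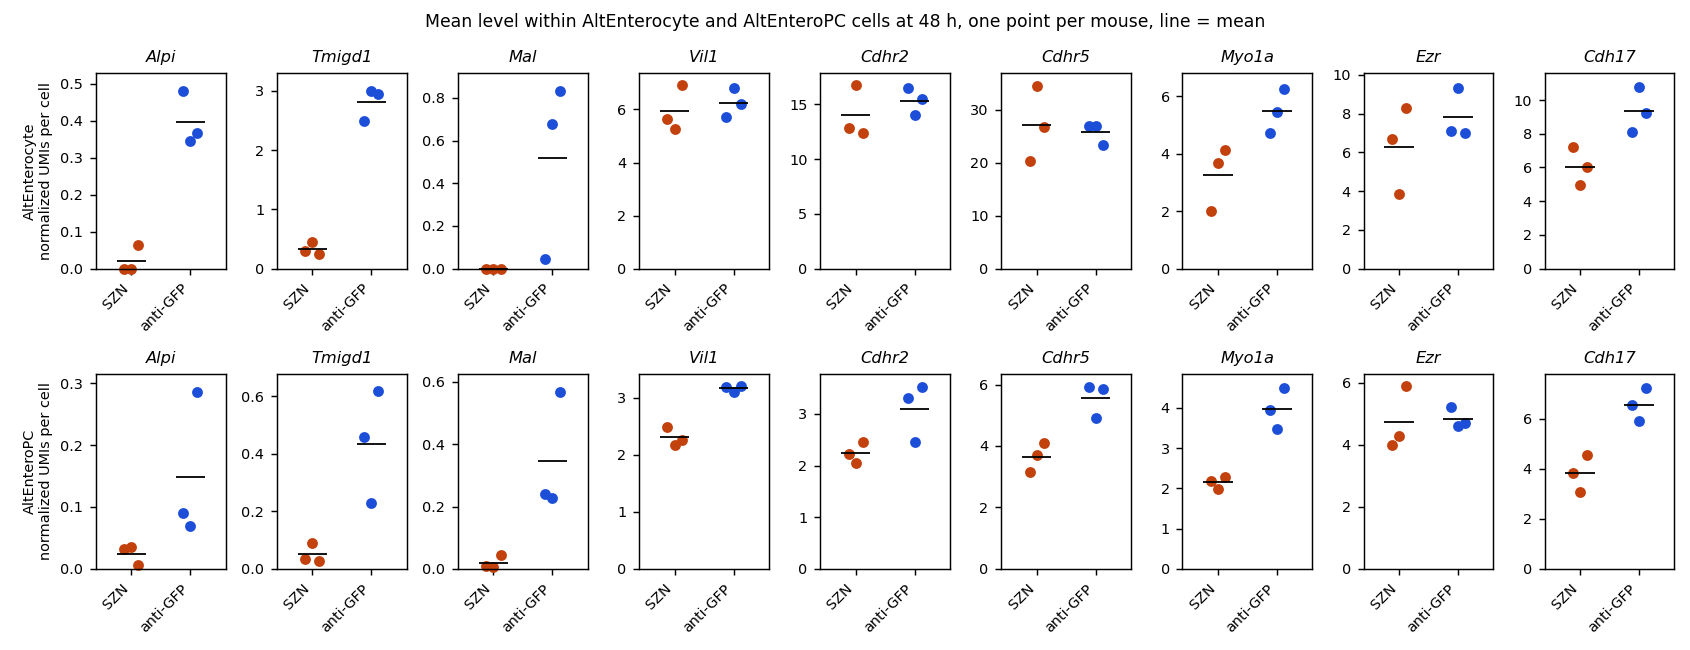
Mean level within AltEnterocyte cells (upper row) and AltEnteroPC cells (lower row) at 48 h (y axis, normalized UMIs per cell), 1 point per mouse, SZN-1326-p left and anti-GFP right, with the line at the mean. Alpi, Tmigd1 and Mal do not overlap between the groups in either type, though Alpi in AltEnteroPC did not pass the test, and Vil1, Cdhr2, Cdhr5 and Ezr overlap in AltEnterocyte.

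At 24 h no member passed in AltEnterocyte, AltEnterocyte2, AltEnteroPC, BasalGoblet or TA1, by limma with at least 20 cells per mouse, where 0.173%, 0.0203%, 0.019%, 0% and 0% of all genes passed in these types, in that order. By unadjusted p under 0.05 there were 4 members in AltEnterocyte (9.06% of all genes), 2 in AltEnterocyte2 (7.34%) and 4 in AltEnteroPC (10.5%), of 9 tested in each, and 0 of 6 tested in BasalGoblet (5.38%) and in TA1 (3.05%). Mal in AltEnterocyte was at 0.253, 0.0706 and 0.130 in SZN-1326-p mice, against 1.55, 0.584 and 0.673 in anti-GFP mice, without overlap (-2.58 ± 0.81, adjusted p = 0.249). Tmigd1 there was at 1.79, 3.22 and 2.90 in SZN-1326-p mice, against 2.40, 3.73 and 5.37 in anti-GFP mice, with overlap (-0.51 ± 0.30, adjusted p = 0.63). The difference between the times within AltEnterocyte was -2.56 ± 0.48 for Tmigd1 and did not pass (adjusted p = 0.0908, at least 10 cells), where 0% of genes passed and 586 of 10067 (5.82%) had an unadjusted p under 0.05.

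AltEnteroPC was also present in uninjured mice, in small numbers (56 and 20 cells at 24 h, 10 and 22 at 48 h). There the comparison of anti-GFP with uninjured mice ran the other way. With at least 10 cells per mouse, 8 of the 9 members were higher in anti-GFP than in uninjured mice, where 14.9% of 10619 genes were higher and 3.8% lower. Cdh17 was at 7.64, 7.51 and 4.99 (24 h) and 6.54, 5.89 and 7.22 (48 h) in anti-GFP mice, against 2.72 and 2.66 (24 h) and 2.48 and 2.29 (48 h) in uninjured mice (log2 change 1.37 ± 0.18, adjusted p = 6.99e-05). Myo1a was at 3.69, 4.03 and 3.30 (24 h) and 3.94, 3.48 and 4.49 (48 h) in anti-GFP mice, against 1.71 and 0.970 (24 h) and 1.47 and 2.24 (48 h) in uninjured mice (1.31 ± 0.20, adjusted p = 0.000201). Neither gene overlapped between the groups, and Vil1 (1.24 ± 0.24) and Alpi (3.52 ± 0.56) did not overlap either, so 4 members did not, against 9.06% of the genes tested there. Tmigd1 (3.45 ± 0.46), Mal (2.87 ± 0.54), Cdhr5 (1.06 ± 0.27) and Cdhr2 (0.58 ± 0.20, adjusted p = 0.0471) overlapped, for Tmigd1 and Mal through uninjured mice at 24 h (for Tmigd1 mouse 2, at 0.520 from 1 UMI in 20 cells), and Ezr did not pass (0.27, interval -0.18 to 0.71). For Alpi, Tmigd1 and Mal the 32 uninjured AltEnteroPC cells at 48 h held 0 UMIs, which allows up to 9.38% of cells with a UMI, so that the size of those changes depends on the added 0.01.

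Shares of cells with a UMI, pooled over the mice of a group, were lowest in SZN-1326-p mice at both times for the 3 low genes. Cells were thinned to 3000 UMIs each, which left out 33 to 221 shallower cells per group. Tmigd1 was then seen in 7.34% (SZN-1326-p), 16.7% (anti-GFP) and 19.6% (uninjured) of epithelial cells at 24 h and in 0.505%, 8.56% and 18.0% at 48 h, in the same order. Mal was seen in 1.49%, 5.66% and 20.1% at 24 h and in 0.151%, 3.09% and 12.9% at 48 h, and Alpi in 1.10%, 4.31% and 3.46% and in 0.151%, 3.23% and 2.55%. In fibroblasts, which should lack them, the shares were 0.133% for Tmigd1, 0.0888% for Mal and 0% for Alpi (0 of 4506 cells, which allows up to 0.0666%) at a median of 9013 UMIs. In SZN-1326-p mice at 48 h the median was 11595 UMIs, and 10 of 1981 cells had a UMI of Tmigd1 and 3 each of Mal and Alpi. The shares of Tmigd1 and Alpi were above those in fibroblasts, which was not tested. For Mal, 3 cells are too few to set 0.151% apart from the 0.0888% in fibroblasts. Unthinned, the 48 h shares were 2.17% (SZN-1326-p), 19.2% (anti-GFP) and 30.6% (uninjured) for Tmigd1, 0.723%, 7.24% and 24.7% for Mal and 0.482%, 9.12% and 9.53% for Alpi. For Alpi the order of anti-GFP and uninjured mice at 48 h thus differed between thinned and unthinned pooled shares. By mouse the unthinned shares of Alpi were 11.9%, 5.96% and 10.9% in anti-GFP mice and 9.42% and 9.61% in uninjured mice. These ranges overlapped, so neither group was set apart.

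Beyond the members, 58 other brush border and apical genes could be tested, of 67 listed. Of these, 18 were lower and 0 higher in SZN-1326-p than in anti-GFP mice at 24 h, where 4.25% of all genes were lower (median log2 change -0.54, against -0.06 for all genes), and 21 were lower and 1 higher at 48 h, where 10.1% of all genes were lower (-0.51, against -0.11). Espn was at 0.667 in SZN-1326-p mice at 24 h, against 1.39 in anti-GFP mice (-1.09, adjusted p = 0.0136), and at 0.188 at 48 h, against 1.24 (-2.60, adjusted p = 1.22e-05). At 24 h Myo7b (-0.98), a myosin of the tip-link complex, Myo5b (-0.98), a motor of apical transport, and the metalloprotease subunit Mep1a (-0.93) followed. At 48 h Ceacam20 (-2.49), a microvillus glycoprotein, Mep1b (-2.37), the partner subunit of meprin, and Prap1 (-1.59) followed, while the peptidase gene Dpp4 was higher (0.58, adjusted p = 0.0292). Of 19 actin core and linker genes tested, 8 were lower at 24 h and 9 at 48 h, and of 9 transcription factors of the list, 2 were lower at 24 h and 1 at 48 h, the second count close to the 10.1% of all genes.

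In anti-GFP against uninjured mice 24 of the 58 were lower and 3 higher, where 12.5% of all genes were lower and 10.8% higher (median -0.32, against 0.00 for all genes). Actin genes made up 13 of the 24, among them Pls3 (-1.26), a plastin, Cobl (-1.22), an actin nucleator, and Eps8 (-1.11), a capping protein of microvillus tips, and Mep1a was at -1.38. The 3 higher genes were Baiap2l2 (0.68), Muc13 (0.51), a membrane mucin, and Myo1c (0.41). In SZN-1326-p against uninjured mice at 48 h 32 were lower, where 12.8% of all genes were, led by Espn (-3.27), Mep1a (-2.89), Ceacam20 (-2.66) and the disaccharidase gene Sis (-2.52), and 2 were higher, Smad4 (0.82) and Dpp4 (0.58), against a median of -0.07 for all genes and -0.83 for the list.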

How the data were processed

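Single-cell RNA-seq libraries of 16 mice were counted with Cell Ranger 3.0.2 on mm10, per the submitters' processing notes. The deposited matrix holds log2 values, which were found to equal log2(UMI count divided by a size factor per cell, plus 1), and the deposited annotation gives each cell's mouse, condition and cell type. The arm that the annotation names SWAP was taken as SZN-1326-p. The logarithm was undone, the values were averaged over epithelial cells per mouse, and log2(mean + 0.01) was fitted with limma 3.58.1 (R 4.3.3; trend and robust options) over all 16 mice in 6 groups, for genes at 0.05 or more in at least 2 mice, with Benjamini-Hochberg adjustment over all genes and a threshold of 0.05. The script was tested on simulated data. Within-type fits used mice with at least 20 cells; the minimum of 10 cells and an equal weighting of types were chosen after seeing the data. Python 3.11.15, numpy 2.4.6, pandas 2.3.3, scipy 1.17.1 and matplotlib 3.10.9 did the rest. Doublets were not called again. The members, the lists and the tests were chosen with earlier results of these data known. All members are named, with up to 4 genes of the other list per comparison and direction, the largest changes that passed, and genes from the 3 most alike to each member. Alternatives covered the filter, the added constant, the scaling, the cells kept, the replicate number, a term for a set of 24 h libraries and each mouse left out.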

Additional observations from a re-analysis of the deposited data

Results flagged for a closer look

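Tmigd1 was the 1 member whose SZN-1326-p effect differed between the times by a test of the difference itself. Its log2 change relative to anti-GFP was -1.46 at 24 h and -4.27 at 48 h, a difference of -2.81 ± 0.44 (SE, limma adjusted p = 0.036, 3 mice per arm and time). The call held in 9 of 23 alternatives. In AltEnterocyte cells alone the difference was -2.56 ± 0.48 and did not pass (adjusted p = 0.0908).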

How the results depend on the processing

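The 48 h result rests on 3 mice per arm, and the direction of the 8 members lower there held under every alternative run. Members past the test stayed at 8 at 48 h with each of the 6 mice left out. Leaving out each mouse moved the count of all genes between 275 and 1880 at 24 h (3 to 6 members), 590 and 1147 at 48 h, 0 and 21 for the difference between times (0 to 1), 1028 and 2980 for anti-GFP against uninjured (2 to 5) and 620 and 1492 for SZN-1326-p against uninjured. The lowest counts came without anti-GFP mouse 2 (24 h), SZN-1326-p mouse 2 (48 h) and uninjured mouse 1 at 48 h (both comparisons with uninjured mice), and the highest at 24 h without anti-GFP mouse 3. Changes near 0 crossed it in such fits, at -0.11 to 0.27 for Alpi, -0.0864 to 0.14 for Myo1a and -0.0171 to 0.15 for Cdh17 in anti-GFP against uninjured mice, and at -0.0310 to 0.20 for Ezr in the difference between times.

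The difference between times was the least stable. It gave 1 gene and 0 members without the filter, 6 and 0 with 0.1 added (Alpi 0.000142), 0 and 0 by voom (1180 genes at an unadjusted p under 0.05), 25 and 0 on the mean of the deposited log2 values (Alpi 0.0611, Tmigd1 0.0194, Mal 0.0518), 5 genes by median-of-ratios scaling, 1 and 0 without cells above 25% mitochondrial UMIs, 0 and 0 without SZN-1326-p mouse 2 at 24 h and mouse 3 at 48 h, whose median mitochondrial share was high over all cells at 18.9% and 24.1%, though in epithelial cells mouse 2 had the lowest of its group at 33.6% and mouse 3 had 36.0% (598 unadjusted; Ezr -0.0574) and 60 genes with a library term. With only the groups compared, 0 genes and 0 members passed at 24 h and 3386 genes for SZN-1326-p against uninjured mice. Without both of those SZN-1326-p mice 360 genes passed at 24 h and 812 at 48 h. Leaving out cells above 25% mitochondrial UMIs kept only 2813 of 10373 epithelial cells. In that setting 482 genes and 3 members passed at 24 h and 756 genes at 48 h. For anti-GFP against uninjured mice 1476 genes passed in that setting, with Alpi at -0.30, Myo1a at -0.19 and Cdh17 at -0.0943. The library term marked uninjured mouse 1, anti-GFP mice 1 and 2 and SZN-1326-p mouse 1, all at 24 h, a set spread unevenly over the groups. In those libraries TA1 cells outnumbered TA2 cells, while TA2 cells outnumbered TA1 cells in the other 24 h libraries. With this term 1694 genes and 6 members passed at 24 h, 2556 genes at 48 h and 2881 for SZN-1326-p against uninjured. Alpi was then at -0.00154 in anti-GFP against uninjured mice.

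Scaling moved the balance of all genes. Voom gave 2145 genes at 24 h, and for anti-GFP against uninjured 3774, 3195 higher and 579 lower, where the first fit had 1162 and 1348; the median of all genes moved to 0.26. For SZN-1326-p against uninjured mice voom gave 1734 higher and 947 lower (451 and 1378 in the first fit), and the median moved to 0.18. The deposited log2 values gave 667 higher and 752 lower at 24 h (636 and 459 in the first fit), 2062 and 862 for anti-GFP against uninjured and 623 and 882 for SZN-1326-p against uninjured. Median-of-ratios scaling gave 397 and 825 at 48 h (260 and 1085 in the first fit) and 624 and 1126 for SZN-1326-p against uninjured.

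Equal weights for AltEnteroPC and BasalGoblet, the 2 types with at least 10 cells in every mouse, were added after seeing the data and leave out the mature types. They gave 0 genes and 0 members at 24 h (774 genes unadjusted; Cdhr2 0.16), 13 and 1 at 48 h (Ezr 0.0264) and 0 and 0 for the difference (363 unadjusted). For anti-GFP against uninjured they gave 1020 genes and 7 members, all 7 higher in anti-GFP mice. These were Alpi at 2.71, Tmigd1 2.59, Mal 2.26, Cdh17 1.33, Myo1a 1.23, Vil1 0.84 and Cdhr5 0.71. Cdhr2 (0.54) and Ezr (0.0523) did not pass. For SZN-1326-p against uninjured the equal weights gave 110 genes and 0 members, with Alpi at 0.90, Tmigd1 1.27, Mal 0.87, Vil1 0.25, Cdhr5 0.10, Myo1a 0.36 and Cdh17 0.64. Within AltEnteroPC at 48 h 0 members passed with at least 10 cells. Equal weights over types of at least 20 cells were not run, as 0 types qualified.

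With the replicate number as a replicate block, 2386 genes and 6 members passed at 24 h, 2399 and 8 at 48 h and 99 and 1 for the difference. The numbers were not taken as pairs. Same-numbered mice correlated at 0.385, -0.305 and 0.445 at 24 h and at 0.134, 0.0659 and 0.315 at 48 h, and not every mouse correlated best with its own number.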
